A study of Mus musculus with 3 samples.

Results

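The GATA transcription factor genes Gata1, Gata2, Gata3, Gata4, Gata5 and Gata6 and the FOG cofactor genes Zfpm1 and Zfpm2 were examined in glomerular endothelial cells sorted from kidneys of adult mice. The 8 genes were taken by symbol from the 21789 probe sets that name a single gene, which stand for 19938 genes, and each has 1 probe set. The cells came from adult Tie2-GFP mice (transgene Tg(TIE2GFP)287Sato, mixed background that is mostly CD-1, sex unknown), which make green fluorescent protein from the promoter of Tek (Tie2), an angiopoietin receptor gene of endothelium. Glomeruli were sieved from the kidney cortex and dissociated, and fluorescent cells were sorted. There were 3 arrays, replicates 1, 3 and 5, with 1 adult kidney behind each and no treatment, and they are 1 group. There is no contrast to test, and the question that can be asked of each gene is whether its signal lay above a detection level. Signals are log2 values, and the detection level is 100 on the linear scale, or 6.64 in log2, the number that the study used to filter low values.

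GATA factors carry a pair of zinc fingers that bind DNA at the bases GATA. Gata1, Gata2 and Gata3 are known for roles in blood cells, and Gata2 also in endothelium, whereas Gata4, Gata5 and Gata6 are known for roles in heart, gut and endoderm. FOG proteins bind a zinc finger of the GATA factor rather than DNA and bring corepressors to it.

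The promoters of the members are shown first, because their base composition was a feature that several of them shared and that the choice of genes did not use. RefSeq windows of the build GRCm38.p6, with 250 bases before and 50 after each start, were at hand for Gata1, Gata2 (2 starts), Gata3, Gata5 and Zfpm1, which are 5 of the 8 genes. The 250 bases before the start of Gata5, of the second start of Gata2 and of Gata1 follow, 5′ to 3′ on the strand of the gene, with each CG pair in capitals.
Gata5, chr2:180334680-180334929, minus strand: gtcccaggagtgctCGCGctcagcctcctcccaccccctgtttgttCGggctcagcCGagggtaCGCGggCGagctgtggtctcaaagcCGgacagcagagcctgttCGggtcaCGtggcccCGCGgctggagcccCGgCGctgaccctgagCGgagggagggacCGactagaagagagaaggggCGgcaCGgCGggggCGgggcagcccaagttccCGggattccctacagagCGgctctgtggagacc
Gata2, chr6:88198414-88198663, plus strand: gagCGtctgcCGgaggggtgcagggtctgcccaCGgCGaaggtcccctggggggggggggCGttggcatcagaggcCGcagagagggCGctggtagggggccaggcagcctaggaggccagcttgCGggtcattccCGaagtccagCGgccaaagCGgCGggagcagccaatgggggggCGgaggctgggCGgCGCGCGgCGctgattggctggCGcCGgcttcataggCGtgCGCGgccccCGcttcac
Gata1, chrX:7967911-7968160, minus strand: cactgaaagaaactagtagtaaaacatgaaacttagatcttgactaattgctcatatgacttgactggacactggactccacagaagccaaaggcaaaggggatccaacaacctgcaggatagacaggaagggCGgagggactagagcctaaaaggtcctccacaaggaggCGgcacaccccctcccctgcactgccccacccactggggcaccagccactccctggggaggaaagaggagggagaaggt

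The window of Gata5 held 22 CG pairs and 70.0% G or C, and that of the second Gata2 start 24 and 74.0%. The first Gata2 start had 22 pairs, Gata3 19 and Zfpm1 28. The window of Gata1 had 2 pairs and 54.0% G or C. Over all 32851 promoter windows of the table the median was 6 pairs and 52.4% G or C, and 14.8% of windows had at least the 22 pairs of Gata5. So 5 of the 6 windows, 2 of them from Gata2, had at least 19 pairs, as did 19.7% of all windows. That of the red cell factor Gata1 did not. The number 19 is the lowest count among those 5 windows and was not set beforehand. Gata4, Gata6 and Zfpm2 had no window.

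The GATA bases were searched in the whole windows of 300 bases on both strands. The words were AGATAA and the same with a last base G, AGATAG, and those that start with T instead, TGATAA and also TGATAG. Such a word occurred in 29.8% of all windows. Among the members it was found only in Gata3, 37 bases after the start, in the stretch gcgccgtctTGATAGtttcagaa. No match says only that these letters are not in the window.

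Gata5, a factor known from the differentiation of endocardium, was measured above the detection level. Its signal was 8.21, 7.43 and 8.57 on replicates 1, 3 and 5, which is 297, 172 and 379 on the linear scale, so that all 3 arrays lay above 100 and replicate 3 was the lowest. The mean was 8.07 ± 0.58 (SD, n = 3), or 1.43 ± 0.26 (SE) above the level in log2 (limma, adjusted p = 0.00705). The study drew Gata5 from its own screen for genes of glomerular endothelium, which required signals above 100, possibly on these same arrays. The call of Gata5 is therefore no independent evidence. Other kidney compartments were not analysed here. In RNA of sorted cells, fewer cells with a transcript and less of it per cell cannot be told apart.

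Of the 8 genes, Gata5 was the only 1 called above the level, against 15.8% of all 21789 probe sets, and 6 were called below it, against 72.5% of all. Gata2, a factor of blood stem cells, mast cells and endothelium, was called neither. Its signal was 6.75 on each array, or 108 on the linear scale, 0.11 over the level in log2 with a standard error of 0.12 (adjusted p = 0.436). Because the value was the same on every array, the call rests on the assumed spread of such probe sets and on the level. With limma's variance prior taken from all probe sets, most of which have no spread, Gata2 was called above (adjusted p = 6.29e-05), as were 16.8% of all probe sets, with 74.1% below. At a level of 200 it was called below (adjusted p = 0.00194).

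Gata4 and Gata6, the relatives of Gata5, were called below 100. Gata4, which is also a factor of the sinusoidal endothelium of the liver, had 5.55 on each array, or 46.9 on the linear scale (adjusted p = 0.00108). Gata6, known from smooth muscle of vessels, had 4.81, 4.81 and 4.74, or 28.0, 28.0 and 26.7 on the linear scale (adjusted p = 0.000198). All 3 arrays were on the same side of the level for both genes. The distance to the level was -1.09 in log2 for Gata4 and -1.86 for Gata6.

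Both FOG cofactor genes were called below as well. Zfpm1 (FOG1), the partner of Gata1 in red cells and platelets, had 5.56 on each array, or 47.1 on the linear scale (adjusted p = 0.00111). Zfpm2 (FOG2), the partner of Gata4 in heart and gonad, had 4.17 on each array (adjusted p = 9.38e-05). The distance to the level was -1.08 and -2.47 in log2, and no array reached 100 for either cofactor.

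Gata1 and Gata3, factors of red cells and of T lymphocytes, were called below. Gata1 had 4.96 on each array, or 31.2 on the linear scale (adjusted p = 0.00026). Gata3 had 4.75, 5.26 and 4.75, or 27.0, 38.2 and 27.0 on the linear scale, and was highest on replicate 3 (mean 4.92 ± 0.29, adjusted p = 0.000747). Gata3 is also known in the collecting duct. Markers of those cells were called below too: 6 of 6 T lymphocyte genes, 10 of 10 distal nephron or collecting duct genes and 9 of 9 genes of red cells, platelets and mast cells, against the 72.5% of all probe sets.

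**Figure D1:**
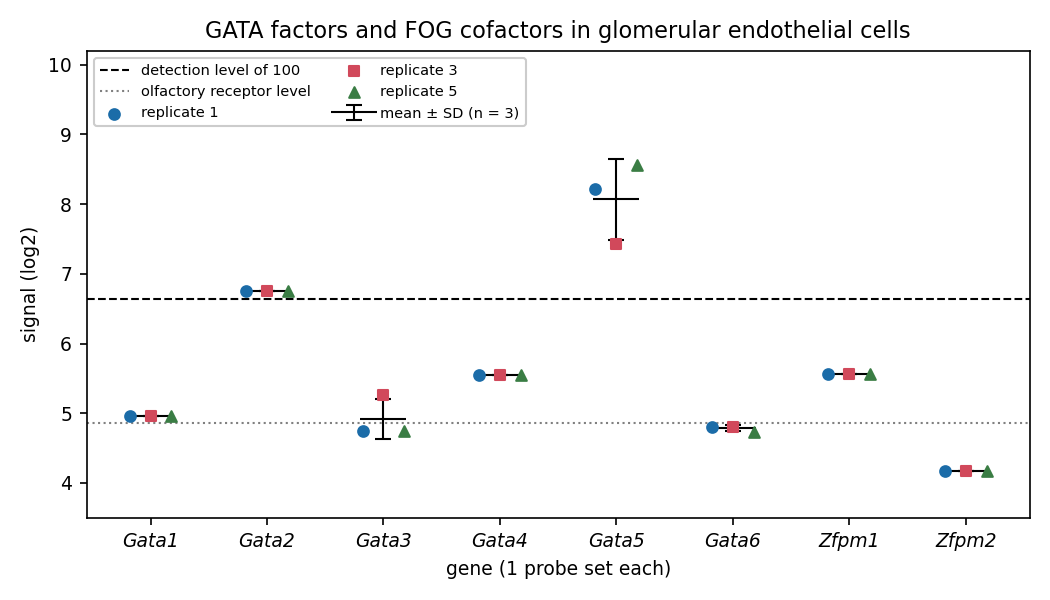
Signal (log2) of the 8 genes on replicates 1, 3 and 5 (points), with the mean ± SD over the 3 arrays (n = 3). The dashed line is the detection level of 100 (6.64 in log2) and the dotted line the olfactory receptor level (4.85). Gata5 lies above the dashed line on all 3 arrays, and Gata2 just over it with the same value on each.

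A call below 100 does not show that a gene was silent. A second level was taken from olfactory receptor genes, which endothelium is not known to use: the 95th percentile of their 1035 probe sets, 4.85 in log2 or 28.9 on the linear scale. Against it, 44.4% of all probe sets were called above and 36.2% below. Gata5, Gata2 (adjusted p = 0.000404), Gata4 (adjusted p = 0.00637) and Zfpm1 (adjusted p = 0.00616) were called above this level. Gata1 and Gata3 at 0.11 and 0.066 over it and Gata6 at -0.069 were called neither, and Zfpm2 at -0.68 was called below (adjusted p = 0.00668). For Gata4 and Zfpm1 the choice of level therefore turns the direction. It does so for some markers as well: 4 of 10 distal nephron genes (Aqp2, Aqp3, Fxyd4 and Hsd11b2) and 3 of 9 genes of red cells, platelets and mast cells (Alas2, Gfi1b and Gp9) were called above the olfactory receptor level, and 0 of 6 T lymphocyte genes were. The part of these cells in the members' signals was not tested. The mean of Gata5 was reached by 1 of the 1035 olfactory receptor probe sets, that of Gata2 by 3, of Zfpm1 by 10, of Gata4 by 11, of Gata1 by 40, of Gata3 by 46, of Gata6 by 60 and of Zfpm2 by 184.

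Among the members, the arrays differed mainly in Gata5. Its highest and lowest array were 1.14 apart in log2, a 2.20-fold difference between replicates 5 and 3, and 6.69% of probe sets called above the level had a range at least as wide, as did 4.62% of all probe sets. Gata3 had a range of 0.50, a 1.42-fold difference, which 5.54% of probe sets called below and 13.8% of all probe sets matched or passed. The range was 0.071 for Gata6 and 0 for the other 5 genes, which had an identical value on all arrays, as did 54.1% of all probe sets, whereas 25.7% had 2 distinct values, as Gata3 and Gata6 did, and 20.2% had 3, as Gata5 did. Without replicate 3, the range of Gata5 was 0.35 and that of Gata3 was 0. Gata5 was called above without replicate 1 (adjusted p = 0.0321), without replicate 3 (adjusted p = 0.000747) and without replicate 5 (adjusted p = 0.0211).

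Most endothelial identity genes were lowest on replicate 3, as Gata5 was. Of 10 endothelial identity genes, all of which were called above the level, 7 had their lowest signal on replicate 3, against 27.4% of the probe sets called above. A probe set with 1 value on all arrays, or tied at its lowest, cannot be lowest on a single array. Such probe sets lower the 27.4%, so the 2 shares are not of like kind. Their summed signal was 16926, 11130 and 19394 on the linear scale on replicates 1, 3 and 5. Kdr, the VEGF receptor gene, had 10.83, 9.53 and 11.18, and Ehd3, an endosomal gene of glomerular endothelium, was at 10.37 ± 0.77 with its lowest value, 9.51, on replicate 3. Eng at 8.91, 9.31 and 9.96 and Erg at 8.49, 8.64 and 8.65 were lowest on replicate 1 instead. Tie1 was tied at 7.60 on replicates 1 and 3. Ehd3, Eng and Tie1 were named here after their values were seen. No identity gene was highest on replicate 3. The part of these markers in the level of Gata5 was not tested.

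The probe sets whose deviations over the 3 arrays lay nearest to those of Gata5 belonged to Sntb1, Blzf1, Inpp5k, Nid1 and Gimap5, with root mean square differences between 0.018 and 0.025 in log2. Sntb1, a syntrophin gene, had 7.78, 7.01 and 8.17 on replicates 1, 3 and 5. Nid1, which encodes the basement membrane protein nidogen, had 6.67, 5.84 and 6.97. With 3 arrays from 1 group this likeness is a description of few points: 59 of the 4405 probe sets with 3 distinct values were within 0.1 of Gata5.

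**Figure D2:**
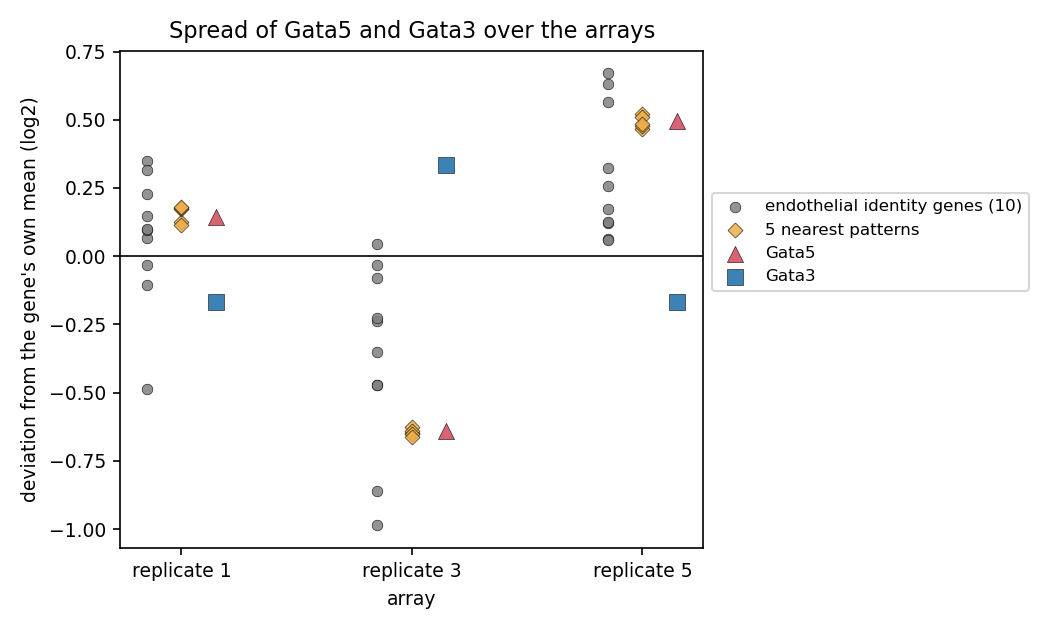
Deviation (log2) from the own mean of each gene on replicates 1, 3 and 5, for Gata5, Gata3, the 5 nearest patterns to Gata5 and the 10 endothelial identity genes. Gata5 and most identity genes lie under 0 on replicate 3, where Gata3 lies above 0.

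The opposite strand of Gata5 holds Gata5os, a long noncoding RNA gene whose annotation overlaps that of Gata5. It has a probe set of its own, with 6.36, 6.25 and 6.36 on replicates 1, 3 and 5, or 82.3, 75.9 and 82.3 on the linear scale. It was called neither (adjusted p = 0.0639). With the variance prior from all probe sets it was called below (adjusted p = 0.0061), and it lay 1.47 above the olfactory receptor level (adjusted p = 0.00076). Its range of 0.12 was narrower than that of Gata5, and replicate 3 was the lowest in both. It was named here after its values were seen. How far the probes of either gene also read the other strand was not tested.

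Other genes that encode a GATA-type zinc finger were measured for comparison. Calls of above were made for 2 of 9 genes, of below for 3 and of neither for 4, and 7 were above the olfactory receptor level. Of all probe sets, 15.8% were called above, 72.5% below and 44.4% above the olfactory receptor level. The median of their levels was 6.70, against 5.02 over all genes, with the probe set of highest mean taken for each gene in both. That rule takes the higher of the Trps1 probe sets described next. Gatad2b, a subunit of the NuRD corepressor, was above at 8.81, 7.91 and 8.79 (adjusted p = 0.002). Gatad2a, its close relative, was below at 5.68, 5.96 and 5.68 (adjusted p = 0.00381). The repressor gene Trps1 had probe sets that disagree. The first had 7.26, 4.86 and 9.43 on replicates 1, 3 and 5, and was called neither (adjusted p = 0.61), whereas the second had 3.83 on each array and was called below (adjusted p = 7.64e-05). The probe sets of Gatad1 differed in spread rather than in mean, which was 7.10 on the first and 7.25 on the second. The first had 6.99, 5.45 and 8.84 and was called neither (limma, adjusted p = 0.569). The second had 7.39, 7.15 and 7.20 and was called above (limma, adjusted p = 0.0112). The level of Trps1 is therefore not settled by these arrays.

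**Figure D3:**
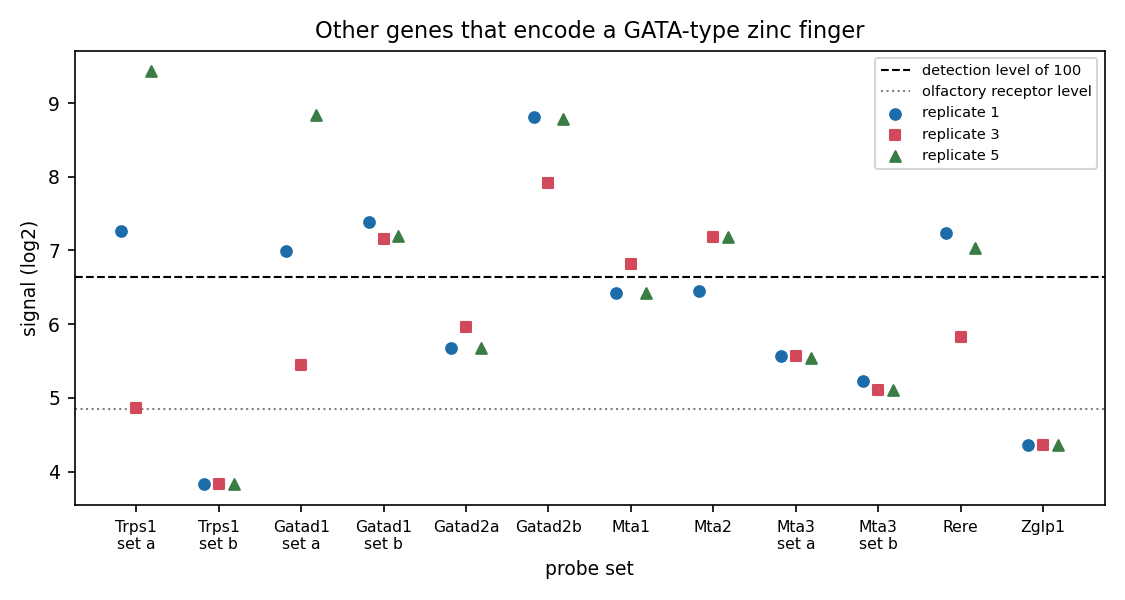
Signal (log2) on replicates 1, 3 and 5 (points) of each probe set of 9 other genes that encode a GATA-type zinc finger, with the detection level of 100 (dashed) and the olfactory receptor level (dotted). The first probe sets (set a) of Trps1 and Gatad1 span from 4.86 to 9.43 and from 5.45 to 8.84, and their second probe sets (set b) do not.

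Corepressors that FOG proteins bind were called above the level in part, although both FOG genes were below it. Among 15 genes there were 6 above, 4 below and 5 that were neither, against 15.8% above and 72.5% below of all probe sets. The median was 6.88, against 5.02 over all genes. Of these genes, 5 are also in the list of zinc finger genes. All 15 were called above the olfactory receptor level, where 44.4% of all probe sets were. The NuRD helicase gene Chd4 was at 8.35, 8.35 and 8.22, and the deacetylase gene Hdac1 was above on both of its probe sets, at 8.48 and 8.92. Hdac2 at 9.32 ± 0.18, Rbbp7 at 8.65 on each array and the methyl-CpG binding gene Mbd2 at 10.30 ± 0.16 were called above too. The adjusted p of these 5 genes on the probe set taken was at most 0.000298. Chd3, the other helicase gene, was called neither at 6.87 ± 0.01 (adjusted p = 0.141).

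Partner proteins of GATA factors in blood and endothelium had 8 of 14 genes above the level, 3 below and 3 that were neither, with a median of 7.93. Partners in heart and endocardium had 1 of 7 above and 6 below, with a median of 5.35. Of all probe sets, 15.8% were above the level of 100 and 72.5% below. Against the olfactory receptor level 12 of 14 and 4 of 7 were above, where 44.4% of all probe sets were. No test set one list against the other. Lmo2 and Ldb1, the adaptors that join GATA factors to Tal1, were above at 8.39, 8.39 and 8.39 and at 8.01, 7.76 and 8.01. Tal1 itself, the bHLH factor of that complex, was called neither at 6.36, 6.11 and 6.36 (adjusted p = 0.0545). The ETS factor genes Fli1 at 9.26 ± 0.04 and Erg at 8.59 ± 0.09 and the acetyltransferase genes Crebbp at 9.15 on each array and Ep300 at 8.20 ± 0.11 were above. In the cardiac list Mef2c was above at 7.59, 7.84 and 7.84 (adjusted p = 0.00146). Nfatc1, a factor of endocardium and a known partner of Gata5, was below 100 at 5.71, 5.71 and 5.72 (adjusted p = 0.00187) and above the olfactory receptor level by 0.86 (adjusted p = 0.00335). Tbx5 at 4.32 and Tbx20 at 4.17, each the same on all arrays, were below as well.

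Genes described as targets of GATA factors in endothelium were split. The 12 measured genes gave 6 calls of above, 2 of below and 4 of neither, and 10 were above the olfactory receptor level. Over all probe sets the shares were 15.8% above, 72.5% below and 44.4% above the olfactory receptor level. The median of the 12 genes was 8.06, and 4 of the 6 above are also in the endothelial identity list. Emcn, the sialomucin endomucin, had 12.69, 12.07 and 12.87 on replicates 1, 3 and 5. Tek was at 10.65 ± 0.43, and the adhesion gene Pecam1 had 10.32, 10.02 and 10.43. Hhex at 8.65 ± 0.15 and Icam2 at 9.31 ± 0.27 were called above too. The adjusted p of the 6 genes, which include Kdr, was at most 0.000737. Edn1, which encodes endothelin 1, had 6.87, 8.45 and 7.08 and was called neither (adjusted p = 0.0988), and so was the nitric oxide synthase gene Nos3 at 6.31, 6.93 and 6.63 (adjusted p = 0.909). Of the 12 genes, 5 (Pecam1, Kdr, Emcn, Tek and Tal1) had their lowest signal on replicate 3, as Gata5 did, and 4 (Edn1, Nos3, Vcam1 and Vwf) their highest. Pecam1, Kdr, Emcn and Tek are identity genes already counted as lowest on replicate 3, so only Tal1 is added here. Among all probe sets called above, 27.4% were lowest and 23.7% highest on that array. Among those called below, 11% were highest. Tal1 and the 4 genes that were highest on replicate 3 were not called above, so these shares are not of like genes. Probe sets with 1 value on all arrays also lower these shares, and 0 of the 12 genes were of that kind. Vcam1 and Vwf were named after their values were seen.

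Promoter windows were at hand for 6 of the 12 targets, and 4 of them held a GATA word, against 33.0% of the 27025 genes with a window. The stretches are shown because they carry the bases that GATA factors bind, 5′ to 3′ on the strand of the gene (plus in all 4), with the word or its complement in capitals.
Edn1, chr13:42301475-42301498, 9 bases after the start: agccgggtcTTATCTctggctgca
Emcn, chr3:137341079-137341102, 11 bases after the start: tctagttctTTATCAgaatcccca
Tek, chr4:94739316-94739338, 37 bases after the start: aggagcagaAGATAAgccttgga
Tal1, chr4:115056212-115056235, 205 bases before a start: tagagtcttTTATCTttgagcaat

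Of these 4 genes Emcn and Tek were called above the level, and Edn1 and Tal1 neither. A word in a window is a description of the letters and not a shown binding site.

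The sorted cells were checked against marker lists. All 10 endothelial identity genes were called above, with Pecam1 at 10.26 ± 0.21 and the cadherin gene Cdh5 at 10.75 ± 0.32. The cells were sorted by a reporter of the Tek promoter. Ehd3 came up in the study's own screen of glomerular endothelium, which required signals above 100, possibly on these same arrays. The calls of Tek and Ehd3 are therefore no independent check. In the marker lists of other cell types every measured member was called below: 7 of 7 leukocyte genes (Ptprc at 4.77 ± 0.18), 8 of 8 genes of mesangial cells and muscle (Pdgfrb at 4.22 ± 0.25), 4 of 4 podocyte genes (Nphs1 at 5.47), 7 of 7 of the proximal tubule (Slc34a1 at 5.37) and 6 of 6 of the liver sinusoid (Stab2 at 5.07), against 72.5% of all probe sets. Against the olfactory receptor level, 2 of 4 podocyte genes (Nphs1 and Wt1), 2 of 7 leukocyte genes (Cd68 and C1qa), Meis1 of the 8 mesangial and muscle genes, Slc34a1 of the 7 proximal tubule genes and Stab1 of the 6 sinusoid genes were called above. Over replicates 1, 3 and 5 the summed linear signal of the mesangial and muscle list was 271, 223 and 224, that of the T lymphocyte list 122, 122 and 119 and that of the distal nephron list 311, 314 and 304. Every gene of these lists was called below 100 and Gata3 was not called above the olfactory receptor level, and the part of such cells in its value on replicate 3 was not tested. The medians of the 3 arrays lay between 4.79 and 4.85 over all 35557 probe sets.

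**Figure D4:**
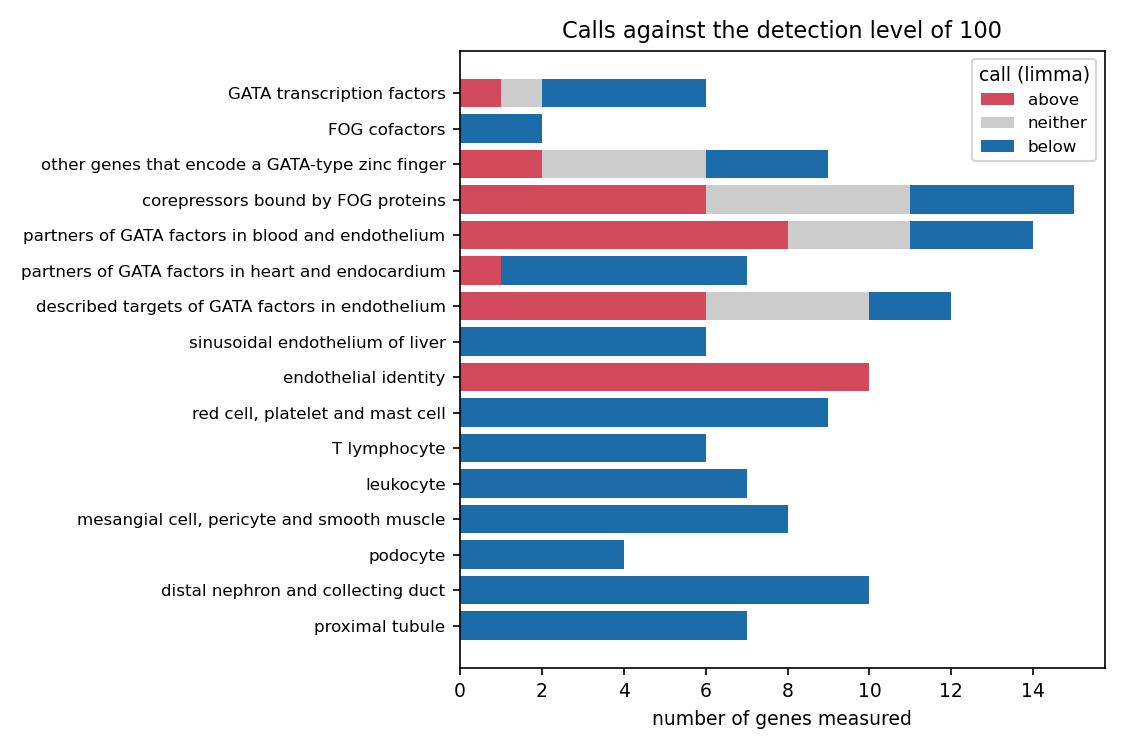
Number of measured genes of each list by limma call against 100 (bars: above, neither, below). The GATA factors have 1 gene above and 4 below, the blood and endothelial partners 8 of 14 above and the cardiac partners 1 of 7.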

How the data were processed

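RNA of sorted cells was amplified in 1 round (NuGEN WT-Ovation Pico) and read on Mouse Gene 1.0 ST arrays of Affymetrix. The authors deposited log2 signals per probe set, here between 1.39 and 14.40. Affymetrix Expression Console stands in the submitters' processing notes without a version, and the study names RMA, which ends in a median polish. The set of arrays normalized together is not given, so the filter of 100 may have been set on another scale than the deposited one. Precision is limited by there being 3 arrays.

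Probe sets were named by the platform annotation. Of 35557, 21789 name 1 gene, 1621 several and 12147 none there. By Entrez identifier 21698 matched RefSeq (GRCm38.p6) and 91 did not, with no symbol changed. In list counts, each gene was represented by its probe set of highest mean.

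limma 3.58.1 in R 4.3.3 compared the mean of the 3 arrays with the log2 detection level (intercept only, two-sided), with Benjamini-Hochberg adjustment over 21789 probe sets and a threshold of 0.05. The variance prior came from the 4406 probe sets with 3 distinct values (tolerance 1e-09; prior SD 0.288, 2.03 degrees of freedom). In simulated data with 21789 probe sets, spreads were drawn from this same prior. A share of 54.1%, picked at random, was given 1 value on all arrays, and ties at 2 distinct values were not imitated. Probe sets placed at the level of 100 were called above in 4% and below in 7%, against 24% and 27% with the prior from all probe sets. With the prior used here, those at 1 above in log2 were called above in 88%. Because the spreads came from that prior, the simulation cannot decide between the 2 priors. Where the arrays differ, p-values cover only how these samples vary, together with the prior, and that variation may be partly technical. Gata1, Gata2, Gata4, Zfpm1 and Zfpm2 had the same value on all arrays. Their spread came wholly from the prior of other probe sets. Their p-values therefore rest on that assumed spread and on the distance to the level. Members, lists and tests were chosen with earlier results of these data known. Genes were named by rule: all members, the first 3 genes of each list, genes called above (at most 6 a list) and the 5 patterns nearest to Gata5; others were chosen later, such as markers above the olfactory level. Alternatives were the prior, levels of 50, 200 and the olfactory level, a filter on low values, equal array medians, the lowest probe set of a gene and each replicate left out.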

Additional observations from a re-analysis of the deposited data

How the results depend on the processing

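Without any single replicate, all 8 members kept their direction and their call. For Gata1, Gata2, Gata4, Zfpm1 and Zfpm2 the value was the same on every array. Leaving out a replicate could therefore not change their mean or direction. Gata5 kept its direction under each alternative, and its call under each except a level of 200. There it lay 0.43 above and was called neither (limma, adjusted p = 0.19). Its adjusted p ranged from 0.000747 to 0.19 over its alternatives. Gata2, 0.11 over the level, was called above with the prior from all probe sets and with equal array medians (adjusted p = 0.0261), where the shift gives tied probe sets 3 distinct values by construction and so changes which probe sets set the prior. This made 2 of the members above in each, and 2 at a level of 50, where Gata2 lay 1.11 above, and Gata4 at -0.0926 and Zfpm1 at -0.0849 were called neither. At a level of 200 no member was above and Gata2 turned to -0.89. Against the olfactory level, 4 members were above and 1 below. There Gata1 turned to 0.11, Gata3 to 0.0658, Gata4 to 0.70 and Zfpm1 to 0.70, Gata2 was at 1.90 and Gata6 at -0.0691. Over all 21789 probe sets, 3451 were above the level of 100, 6238 above 50, 1819 above 200 and 9680 above the olfactory level. With equal medians 3826 were above 100 and 16289 below. With the prior from all probe sets 3671 were above and 16156 below. Below, 15803 became 11978 at a level of 50, 18366 at 200 and 7889 at the olfactory level. The filter on low values keeps 11912 probe sets, of which 5771 were below, and leaves out Gata6 and Zfpm2. It removes probe sets with a mean under the olfactory level, so a lower count of below is largely built in. With equal medians the ranges of Gata1, Gata2, Gata4, Zfpm1 and Zfpm2 were 0.067. Leaving out a replicate gave ranges from 0.35 to 1.14 for Gata5, from 0 to 0.50 for Gata3 and from 0 to 0.0708 for Gata6. At the olfactory level most list counts, 24 of 28, moved by over 1.5 times (corepressors above from 6 to 15, heart partners below from 6 to 2). Fewer moved at the other levels, 8 of 28 at a level of 50 and 6 of 28 at 200. The filter on low values moved 9, all of them counts of genes called below, and leaving out a replicate moved 0. The labels put all samples in 1 group. No paired analysis was possible because there is no second group.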
